A study of Homo sapiens with 18 samples.

Results

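The comparison described here was between an siRNA that targets CTBP1-AS, marked #2 in the labels, and a control siRNA in LNCaP, an androgen-responsive line of human prostate cancer cells. It rests on 4 of the 18 gene-level arrays of the study, called set 2, in which each combination of siRNA and treatment has 1 array. The 4 arrays were chosen by their titles: siControl replicate 2 and siCTBP1-AS #2, each with vehicle (ethanol) and with R1881, a synthetic androgen, at 1 nM. Transfection preceded hormone by 48 h, and for 3 days before hormone the medium held 2.5% charcoal/dextran-treated serum, which is low in steroids. The other arrays were LNCaP set 1 (siControl and siCTBP1-AS without a mark, vehicle and 10 nM R1881, 4 arrays), LNCaP set 3 (siControl and siPSF, vehicle and 10 nM R1881, 4 arrays) and VCaP, another prostate cancer line (siControl, siCTBP1-AS and siPSF, vehicle and 1 nM R1881, 6 arrays). VCaP was kept in 5% charcoal/dextran-treated serum, LNCaP in 2.5%. In VCaP the siCTBP1-AS arrays also carry the mark #2. The sample descriptions put the same mark on the control siRNA of set 2, so the labels do not settle whether #2 names a different siRNA or a different experiment. Separate cultures are not stated either, so noise between arrays may be technical. With 1 array per combination in each set, the spread behind each p-value is not one between replicates.

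CTBP1-AS is a long RNA transcribed antisense to CTBP1, which encodes a transcriptional corepressor. In prostate cancer cells androgen switches on genes such as KLK3, which encodes prostate-specific antigen, and represses others. Mammalian cells also carry sensors of double-stranded RNA, among them the OAS enzymes, RIGI and IFIH1. Through interferons RIGI and IFIH1 switch on a large group of antiviral genes, the interferon-stimulated genes, via a transcription factor complex that contains IRF9.

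Values are log2 signals per gene, and levels were compared between arrays. The marker percentiles below are the exception: they rank genes within an array and are a rough guide only. The 4 arrays had medians of 5.73 to 5.75 and had pairwise correlations of 0.974 to 0.993 across genes. The pair closest to each other was siCTBP1-AS #2 in vehicle and in R1881 (0.9928), and siControl in vehicle and R1881 correlated at 0.9813. The 8 luminal prostate markers measured stood at a median of the 96.4th percentile of genes (range 52.5 to 99.9). Markers of basal epithelium stood at 12.2 to 37.4, of leukocytes at 1.9 to 33.0 and of endothelium at 5.6 to 24.5. Of the lists of other cell types, fibroblast markers reached the 58.5th percentile and neuroendocrine markers the 86.0th, the latter through ENO2, a glycolytic enzyme.

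The targeted RNA was not analysed here, and its knockdown was not checked on these arrays. For CTBP1, its sense partner, the siControl signals were 10.26 (vehicle) and 9.06 (R1881), and the siCTBP1-AS #2 signals 9.62 and 9.25. The siCTBP1-AS #2 array was the lower of the pair in vehicle and the higher in R1881, and the mean difference of -0.23 (SE 0.21) was not called (limma adjusted p = 0.503). CTBP1-DT, a noncoding RNA of the same locus, had signals of 10.08 and 9.94 under siControl against 9.09 and 9.13 under siCTBP1-AS #2. It fell by 0.90 on the log2 scale (SE 0.11, limma adjusted p = 0.00336), and both knockdown arrays lay below both control arrays.

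The first comparison asked which genes differed between siCTBP1-AS #2 and siControl over both treatments. The value for a gene is the mean of the difference in vehicle and the difference in R1881, on the log2 scale, from the 4 arrays of set 2. Its spread was estimated with limma over the 12 LNCaP arrays, each set with its own level, R1881 response and siRNA effect. This leaves 3 residual degrees of freedom, which measure how far each siRNA effect differed between vehicle and R1881 within its set. Spread between replicates does not enter. Of 13812 genes tested, 2749 (19.9%) were called at an adjusted p under 0.05. Of these, 1204 were higher (8.72%) and 1545 lower (11.2%), against a median difference of 0.007 over all genes. All 2749 moved the same way in vehicle and in R1881, as did 68.3% of all tested genes, but the test fixes this. Disagreement between the treatments enters its spread, so a gene with opposite directions could not be called. Most called differences were small: 359 exceeded 2-fold, 140 of them higher and 219 lower. Past 4-fold, 29 genes were higher and 3 lower. When the spread came from the 4 arrays alone, 485 genes were called (176 higher, 309 lower), of which 466 were among the 2749. Without the R1881 pair the count was 1256, without the vehicle pair 2000, and without set 3 in the spread 1789. Over all genes the differences in vehicle and in R1881 correlated at 0.64 across genes, with SDs of 0.42 and 0.47.

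**Figure D1:**
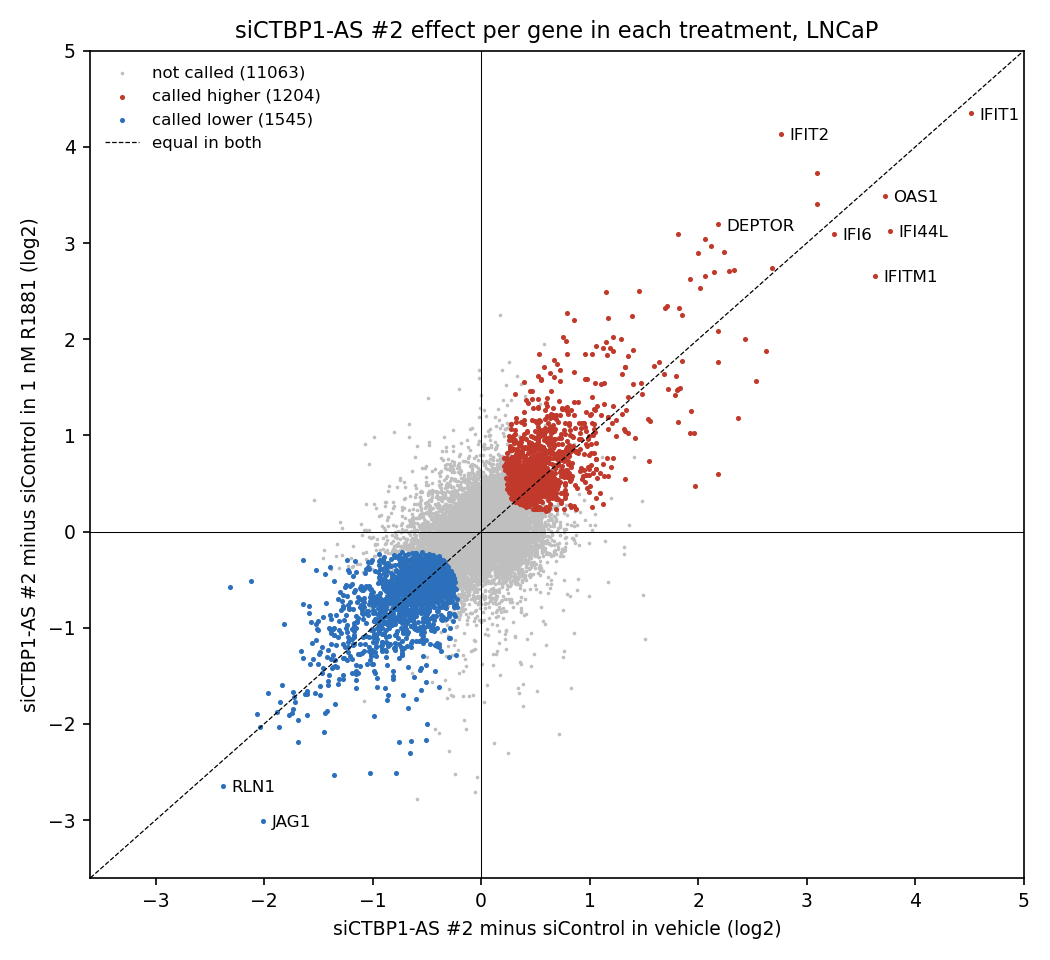
Each point is 1 of 13812 genes, with the siCTBP1-AS #2 minus siControl difference in vehicle on the x axis and in 1 nM R1881 on the y axis (both log2), red where called higher (1204) and blue where called lower (1545). IFIT1, OAS1 and other interferon-stimulated genes lie farthest out at the upper right, and RLN1 and JAG1 at the lower left.

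Interferon-stimulated genes held the largest increases. Of 33 interferon effectors tested, out of 38 listed, 22 rose, none fell and 11 were not called, with a median of 1.50. Among all tested genes 8.72% rose and 11.2% fell. Without the filter on dim genes, which averages over knockdown arrays too, 22 of 37 rose and the median was 1.09. Both siCTBP1-AS #2 arrays lay above both siControl arrays for 27 of the 33, where this was so for 25.2% of all tested genes. The 4 arrays of set 2 alone gave 20 calls, without the R1881 pair there were 10, and without the vehicle pair 16. In a bulk sample, fewer cells of a type and less RNA per cell cannot be told apart. IFIT1, whose product binds foreign RNA lacking a host-type cap, had signals of 6.27 and 6.11 with siControl in vehicle and R1881. With siCTBP1-AS #2 they were 10.78 and 10.46, so the groups did not overlap, and IFIT1 rose by 4.43 (SE 0.59, limma adjusted p = 0.00436). IFIT2, of the same family, went from 5.42 and 4.49 to 8.18 and 8.62, a rise of 3.45 (SE 0.39). IFI44L, a feedback regulator of the interferon response, had 3.75 and 3.61 with siControl and 7.51 and 6.74 with the knockdown. It rose by 3.45 (SE 0.62), the difference being larger in vehicle than in R1881. SAMD9, an antiviral restriction factor, had 5.14 and 4.32 against 8.23 and 8.05, a rise of 3.41 (SE 0.52). RSAD2, which makes the antiviral nucleotide ddhCTP, rose by 3.25 (SE 0.27), from 4.93 and 4.49 to 8.02 and 7.89. IFI6, an endoplasmic reticulum protein with antiviral activity, was already high with siControl (9.22 and 8.82) and rose by 3.18 (SE 0.33) to 12.47 and 11.92. IFITM1, a membrane protein that blocks virus entry, had 5.68 and 5.71 against 9.31 and 8.36, a rise of 3.14 (SE 0.38). For each of these 7 genes the lower knockdown array lay above the higher control array. IFI44L no longer passed when either pair was left out, and SAMD9 did not without the R1881 pair.

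The promoters of 3 of these genes are shown because they carry the motif through which IRF9-containing complexes bind, the interferon-stimulated response element. The motif searched was GAAA, any 2 bases and GAAA again, on either strand, within the 250 bases before and 50 after the gene start, in sequences from RefSeq (GRCh38.p14). Capitals mark the matches, which begin and end in TTTC where the motif is on the other strand, and each sequence runs 5′ to 3′ on the gene's strand.
IFIT1 promoter: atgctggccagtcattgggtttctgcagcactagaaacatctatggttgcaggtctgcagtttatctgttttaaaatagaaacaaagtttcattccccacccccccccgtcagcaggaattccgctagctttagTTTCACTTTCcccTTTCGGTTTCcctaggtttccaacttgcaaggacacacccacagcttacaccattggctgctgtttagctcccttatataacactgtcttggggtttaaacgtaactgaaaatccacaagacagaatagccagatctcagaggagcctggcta
IFI44L promoter: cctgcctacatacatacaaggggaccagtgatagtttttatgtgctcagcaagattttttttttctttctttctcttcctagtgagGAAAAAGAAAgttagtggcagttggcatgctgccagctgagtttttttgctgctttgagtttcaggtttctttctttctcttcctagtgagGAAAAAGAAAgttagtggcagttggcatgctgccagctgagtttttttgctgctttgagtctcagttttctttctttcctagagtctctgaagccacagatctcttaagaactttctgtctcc
SAMD9 promoter: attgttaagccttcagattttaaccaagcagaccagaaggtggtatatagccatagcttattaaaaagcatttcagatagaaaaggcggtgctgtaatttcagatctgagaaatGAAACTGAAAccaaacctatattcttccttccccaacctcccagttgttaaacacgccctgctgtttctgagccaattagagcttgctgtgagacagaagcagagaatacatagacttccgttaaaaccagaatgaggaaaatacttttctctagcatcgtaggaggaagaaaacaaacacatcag
IFIT1 (chr10:89392373-89392672, plus strand) holds 2 matches that begin 116 and 103 bases before the start. IFI44L (chr1:78620198-78620497, plus strand) has 2, at 164 and 73 bases, and SAMD9 (chr7:93117930-93118229, minus strand) has 1, at 136 bases. Of the 38 interferon effectors 32 had a promoter in the table, and 23 of these (71.88%) held the motif, against 3.57% of all 35116 promoters and 2.62% of the 10880 promoters of tested genes. It was in 5 of 14 promoters of the double-stranded RNA sensors (35.71%) and 1 of 13 of interferon signalling genes (7.69%). Of the genes called higher, 980 of 1204 had a promoter in the table and 4.29% of these held it, against 1.44% of 1249 promoters of genes called lower. A match describes these letters and does not show binding.

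Sensors of double-stranded RNA were the next group. Of 18 tested, 9 rose, 1 fell and 8 were not called, where 8.72% of all tested genes rose and 11.2% fell. Their median was 0.74. OAS1, which makes the messenger that activates RNase L, had signals of 5.67 and 5.84 under siControl against 9.39 and 9.33 under siCTBP1-AS #2, a rise of 3.61 (SE 0.43, limma adjusted p = 0.00314). Its vehicle and R1881 signals lay close together with each siRNA. IFIH1, the sensor of long double-stranded RNA also called MDA5, rose by 2.57 (SE 0.24), from 5.25 and 4.59 to 7.49 and 7.50. OASL, an OAS-like protein that enhances RIGI signalling, rose by 2.36 (SE 0.26), and DDX60, a helicase, by 2.28 (SE 0.32). In the same list MAVS, the adaptor on which RIGI and IFIH1 act, fell by 0.50 (SE 0.09), from 8.73 and 8.92 to 8.21 and 8.44. It was not called on the 4 arrays alone (adjusted p = 0.0902), nor without the R1881 pair, which left 3 sensors called higher.

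Among genes of interferon signalling the picture was mixed, with 4 of 16 higher and 1 lower and a median of 0.04. The shares over all tested genes were 8.72% and 11.2%. IRF9, the DNA-binding subunit of the interferon-activated complex, stood out with signals of 7.49 and 7.09 against 10.17 and 9.82, a rise of 2.71 (SE 0.22, limma adjusted p = 0.00123). IFNGR1, a chain of the interferon-gamma receptor, rose by 0.75 (SE 0.11), and TYK2, a kinase of the type I receptor, by 0.55 (SE 0.12). JAK2, the kinase paired with the interferon-gamma receptor, fell by 0.68 (SE 0.19). Of this list IRF9 alone was called on the 4 arrays by themselves.

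Of 8 interferon genes measured, 3 were bright enough to test, each of the lambda type. These 3 rose, as did 8.72% of all tested genes. Brightness was averaged over knockdown arrays too. Without that filter 3 of the 8 were called higher and 0 lower, with a median of 0.17. IFNL1 had 5.20 and 5.37 under siControl against 6.92 and 6.85 under siCTBP1-AS #2, a rise of 1.60 (SE 0.11, limma adjusted p = 0.000923). IFNL2 rose by 0.96 (SE 0.14) and IFNL3 by 0.47 (SE 0.11), the latter not called on the 4 arrays alone. IFNL2 and IFNL3 are near-identical, so their probes may read each other's RNA. IFNB1, the beta interferon gene, was among the dimmest genes left out.

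Some chemokines that attract lymphocytes also rose: of 9 cytokine genes tested 5 were higher and none was lower, with a median of 0.40. The shares over all tested genes were 8.72% higher and 11.2% lower. The filter on dim genes averages over knockdown arrays too, which favours genes that the knockdown raises. Without it 5 of 15 cytokine genes were higher and the median was 0.002. CCL5 had signals of 5.06 and 4.46 against 7.40 and 7.19 and rose by 2.53 (SE 0.13, limma adjusted p = 0.000605). CXCL10 had 5.84 and 5.82 against 7.96 and 8.79, a rise of 2.54 (SE 0.27), and its knockdown signal was higher in R1881 than in vehicle. CXCL11 rose by 1.49 (SE 0.25) from 4.28 and 4.13. CCL20, which attracts cells through CCR6, rose by 0.96 (SE 0.25) and was not called on the 4 arrays alone. CXCL11 and CCL20 did not pass without the R1881 pair, which left 2 of the 9. None of 9 NF-kappa-B target genes was called, with a median of -0.05.

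Antigen presentation genes split. HCP5, a noncoding RNA of the HLA region, rose by 1.35 (SE 0.16) from 5.77 and 5.70 to 7.32 and 6.85. ERAP2, which trims peptides for HLA class I, rose by 0.62 (SE 0.15) and PSMB9, an immunoproteasome subunit, by 0.50 (SE 0.11), neither called on the 4 arrays alone. CD274, the inhibitory ligand PD-L1, went the other way. Its signals were 8.13 and 7.87 under siControl against 6.25 and 6.00 under siCTBP1-AS #2, a fall of 1.88 (SE 0.21, limma adjusted p = 0.00259). Over the 11 genes tested 3 rose and 1 fell, where 8.72% of all tested genes rose and 11.2% fell. The median of the 11 was 0.225. CD276, another ligand of the same family (B7-H3), fell by 1.79 (SE 0.09), from 8.76 and 8.67 to 7.03 and 6.83.

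**Figure D2:**
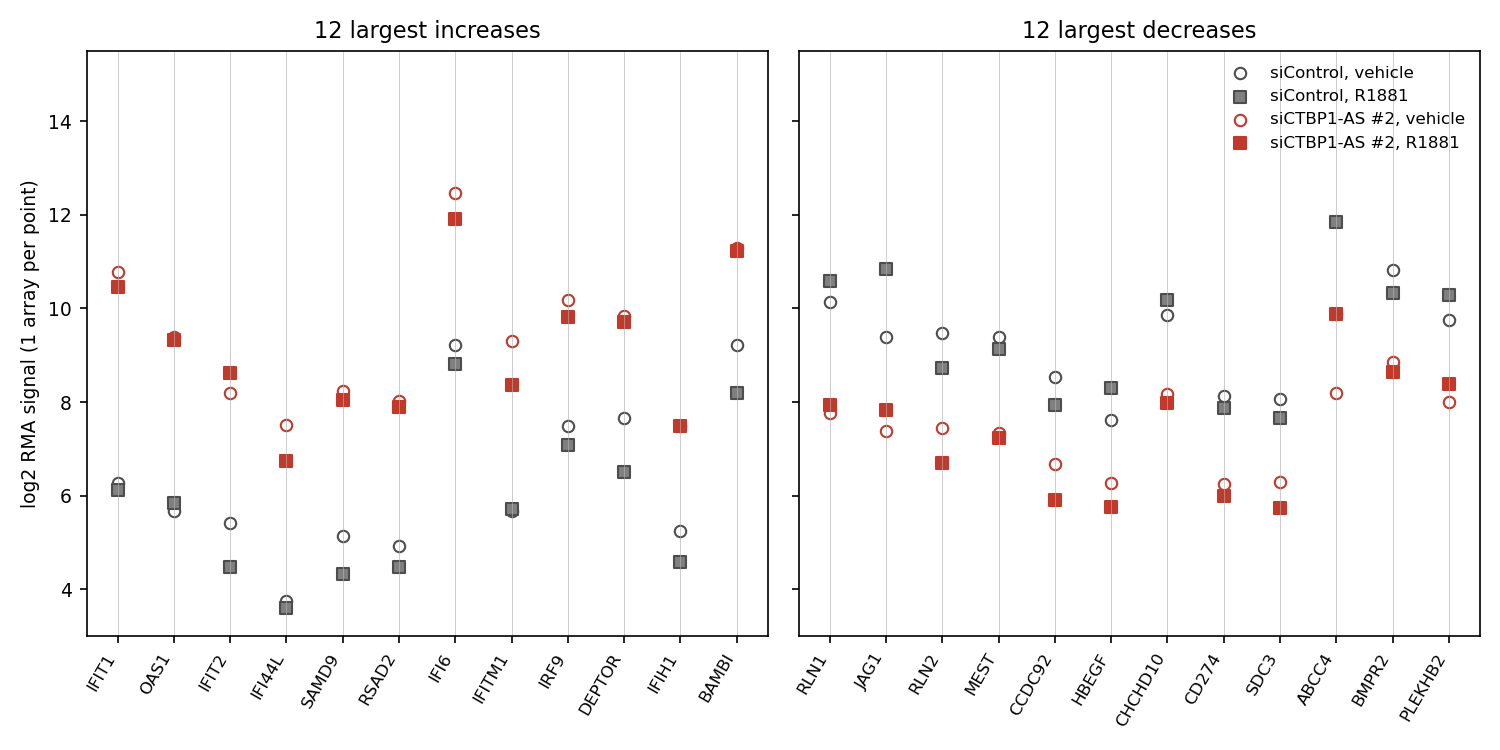
Log2 signals in each of the 4 arrays (1 point per array, grey for siControl and red for siCTBP1-AS #2, open for vehicle and filled for R1881) are shown for the 12 genes with the largest increases and the 12 with the largest decreases. Both knockdown arrays lie on 1 side of both control arrays for each gene but ABCC4.

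The other leading increases were DEPTOR and BAMBI, which are not interferon-stimulated genes by these lists. DEPTOR, an inhibitor of mTOR, had siControl signals of 7.67 (vehicle) and 6.51 (R1881), and knockdown signals of 9.84 and 9.70. It rose by 2.69 (SE 0.24, limma adjusted p = 0.0015), and both groups lay apart. BAMBI, a decoy receptor for TGF-beta family ligands, had 9.22 and 8.18 against 11.29 and 11.23, a rise of 2.55 (SE 0.25). Both genes were lower in R1881 than in vehicle with siControl by over 1 log2 unit (-1.16 and -1.04), against -0.14 and -0.06 with the knockdown. In the TGF-beta list THBS1, which activates latent TGF-beta, rose by 1.82 (SE 0.48). SMAD4, the shared SMAD partner, fell by 0.60 (SE 0.11) and TGFBR1, the type I receptor, by 0.40 (SE 0.09). Of 16 genes 2 thus rose and 2 fell, shares near those of all tested genes (8.72% and 11.2%). THBS1, SMAD4 and TGFBR1 were not called on the 4 arrays alone. SMAD3 had 7.75 and 6.73 under siControl against 7.02 and 6.99 under siCTBP1-AS #2, and its mean difference of -0.24 was not called.

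The largest decreases were in genes of several functions. RLN1 and RLN2 encode relaxin hormones and are near-identical, so their values are uncertain. RLN1 had signals of 10.14 and 10.57 against 7.76 and 7.93, and fell by 2.51 (SE 0.12, limma adjusted p = 0.000605). RLN2 had 9.48 and 8.73 against 7.44 and 6.69, a fall of 2.04 (SE 0.10). JAG1, a ligand of Notch receptors, had 9.39 and 10.84 against 7.39 and 7.83. It fell by 2.51 (SE 0.38), with the larger gap in R1881, and was not called without the R1881 pair. MEST, an imprinted gene of the hydrolase family, fell by 1.98 (SE 0.09) from 9.40 and 9.14 to 7.33 and 7.24. HBEGF, a growth factor that binds the EGF receptor, had 7.63 and 8.29 against 6.27 and 5.76, a fall of 1.94 (SE 0.26). R1881 left it higher with siControl and lower with the knockdown. BMPR2, the type II receptor for bone morphogenetic proteins, fell by 1.82 (SE 0.11) from 10.81 and 10.33 to 8.85 and 8.65. CHCHD10, a mitochondrial protein, fell by 1.94 (SE 0.14), SDC3, a heparan sulfate proteoglycan, by 1.84 (SE 0.10), CCDC92 by 1.94 (SE 0.11) and PLEKHB2 by 1.82 (SE 0.10). ABCC4, a transporter of cyclic nucleotides and drugs, had 9.87 and 11.84 against 8.19 and 9.88 and fell by 1.82 (SE 0.11). Its R1881 array with the knockdown lay just above its vehicle array with siControl, so the groups overlapped although each treatment showed the fall. All 24 leading genes were also called on the 4 arrays alone.

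Of 17 genes of the CTBP1 locus and corepressor complexes 1 rose and 4 fell, with a median of -0.21, where 8.72% of all tested genes rose and 11.2% fell. SAP130, a subunit of the SIN3 corepressor, fell by 1.00 (SE 0.10, limma adjusted p = 0.00193), from 9.57 and 9.74 to 8.62 and 8.68. HDAC3, a histone deacetylase, fell by 0.52 (SE 0.09) and RBBP4, a histone chaperone, by 0.47 (SE 0.10), neither called on the 4 arrays alone. SFPQ, which encodes PSF, had a difference of -0.04 (SE 0.10) and was not called. Of the 6 PSF and paraspeckle genes, RBM14 fell by 0.44 (SE 0.10), which did not hold with the mean of all its probe clusters.

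Cell cycle genes were lower where they differed. In the DNA replication list 9 of 36 fell and none rose, with a median of -0.28. In the mitosis list 8 of 26 fell and none rose, with a median of -0.25. Among all tested genes 11.2% fell and 8.72% rose. MKI67, the proliferation marker Ki-67, had signals of 7.79 and 8.17 against 6.82 and 7.09 and fell by 1.03 (SE 0.10, limma adjusted p = 0.00161). MCM10, needed to start replication forks, fell by 1.01 (SE 0.19), from 6.58 and 7.35 to 5.73 and 6.18. RRM2, a subunit of ribonucleotide reductase, fell by 0.97 (SE 0.16) and GINS1, of the replicative helicase, by 0.91 (SE 0.16). KIF20A, a kinesin of cytokinesis, fell by 0.76 (SE 0.12) and TOP2A, a topoisomerase, by 0.49 (SE 0.12). These calls rested on few arrays. On the 4 arrays alone 2 replication genes and 1 mitosis gene were called, and without the R1881 pair 0 and 3. Both knockdown arrays lay below both controls for 16 of the 36 and 18 of the 26, against 24.3% of all tested genes. Of 13 cyclins and inhibitors 4 fell and none rose, among them CDKN1A, the p53-induced inhibitor p21, by 0.50 (SE 0.11) and CCND3, a D-type cyclin, by 0.55 (SE 0.11). Neither was called on the 4 arrays alone.

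Lipid genes moved unevenly. Of 15 fatty acid genes 4 fell and 1 rose, with a median of -0.22. FADS1, a desaturase of polyunsaturated fatty acids, had 9.51 and 10.85 against 8.53 and 8.93 and fell by 1.45 (SE 0.20, limma adjusted p = 0.00456). SCD, which makes monounsaturated fatty acids, fell by 1.29 (SE 0.16), from 10.38 and 10.86 to 9.43 and 9.24. ACLY, which makes cytosolic acetyl-CoA, fell by 1.02 (SE 0.13), and ACSL1, an acyl-CoA synthetase, rose by 0.54 (SE 0.11). FADS1 and ACSL1 were not called on the 4 arrays alone. In cholesterol synthesis 2 of 16 rose and 2 fell, with a median of 0.02, shares near those of all tested genes (8.72% and 11.2%). CYP51A1, the lanosterol demethylase, fell by 1.01 (SE 0.14) and SREBF2, the sterol-regulated transcription factor, by 0.80 (SE 0.18), while SC5D and DHCR7, of the last steps, rose by 0.55 and 0.50. None of these 4 was called on the 4 arrays alone.

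Several smaller lists held single strong members. In the oxidative stress list AKR1C1, a ketosteroid reductase, rose by 2.01 (SE 0.18), from 5.16 and 4.73 to 6.85 and 7.05, and AKR1C2 by 1.64 (SE 0.16). These are near-identical relatives and uncertain. HMOX1, the haem oxygenase, rose by 1.22 (SE 0.25) and was not called on the 4 arrays alone. NQO1 and the other 4 of the 8 genes tested were not called. EPCAM, an epithelial adhesion protein, had 10.28 and 9.96 against 8.78 and 8.68 and fell by 1.38 (SE 0.10, limma adjusted p = 0.000947). In the same EMT list SNAI2, FN1 and TWIST1 fell as well, so that 4 of 7 fell and none rose, but these 3 were not called on the 4 arrays alone. The list holds genes of both epithelial and mesenchymal cells. Of 13 genes of the RNA interference machinery 3 fell and none rose: DROSHA, which cuts primary microRNAs, by 0.80 (SE 0.09), AGO1 by 0.71 (SE 0.11) and PRKRA by 0.36 (SE 0.10). DROSHA alone of the 3 was called on the 4 arrays. SPRED2, an inhibitor of MAP kinase signalling, fell by 1.19 (SE 0.13), from 8.02 and 8.62 to 7.02 and 7.25. Of 18 apoptosis genes 4 rose and 2 fell, with TNFSF10, the death ligand TRAIL, highest at 1.12 (SE 0.24), from 6.11 and 6.35 to 7.27 and 7.41. It no longer passed when either pair was left out. ERBB3, a partner of HER2, rose by 0.70 (SE 0.11) and IGF1R, the IGF-I receptor, fell by 1.47 (SE 0.35) among 12 growth factor and PI3K genes. ARG2, the mitochondrial arginase, and ODC1, which makes putrescine, fell by 1.05 (SE 0.15) and 1.25 (SE 0.18) among 10 polyamine genes, with AZIN1 the third lower. VEGFA fell by 0.87 (SE 0.16), the 1 call among 16 hypoxia genes. In the ATF4 list SLC7A1 and SHMT2 fell (2 of 26), of 18 ER chaperone genes HERPUD1 and XBP1 rose, and of 13 ribosomal protein genes RPS2 fell. Over all tested genes 8.72% rose and 11.2% fell. Counts in the growth factor, hypoxia, ATF4, ER chaperone and ribosomal protein lists lie near or below these shares. Of the genes from ERBB3 to RPS2 in this account, ARG2 alone was called on the 4 arrays by themselves. None of 15 immediate early genes was called, nor any tested marker of basal epithelium, fibroblasts, leukocytes, endothelium or neuroendocrine cells.

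**Figure D3:**
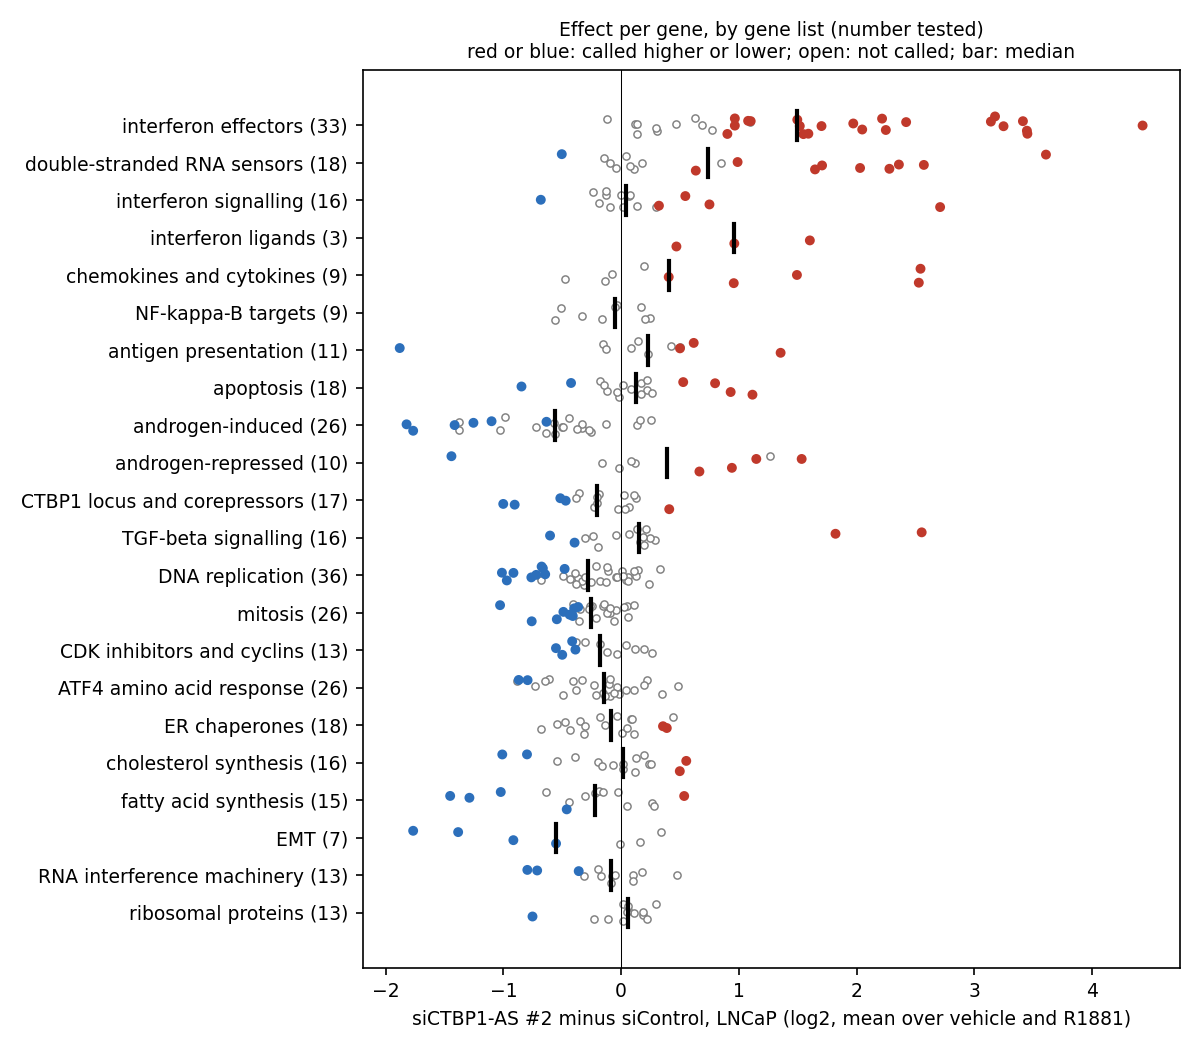
Each point is 1 gene, placed by its siCTBP1-AS #2 minus siControl difference (log2, mean over vehicle and R1881) in the row of its list, filled where called and open where not, with a bar at the list's median. The interferon effectors reach 4.43 with a median of 1.50, while the androgen-induced list has a median of -0.57.

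The next comparison asked whether the response to R1881 (R1881 minus vehicle) differed between the siRNAs, from 1 array against 1 in each. No gene was called: limma, with the spread from sets 1 and 3 and 2 residual degrees of freedom, gave 0 of 13812 (0.0%) at an adjusted p under 0.05. At an unadjusted p under 0.05 there were 1857 (13.4%). The spread here is the change in R1881 response with siCTBP1-AS in set 1 and with siPSF in set 3. A real change there would enlarge it, so 0 calls does not show that no response changed. Over all tested genes the SD of the R1881 response was 0.498 with siControl and 0.293 with siCTBP1-AS #2. In the other LNCaP sets it was 0.361 with siControl and 0.321 with siCTBP1-AS (set 1), and 0.437 with siControl and 0.377 with siPSF (set 3). With siControl 307 genes were over 2-fold higher in R1881 and 298 over 2-fold lower, against 105 and 36 with the knockdown. The response was smaller in size with siCTBP1-AS #2 for 69.6% of tested genes.

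Genes known to be induced by androgen showed this response with both siRNAs, at a lower median with the knockdown. Over 26 tested the median response was 3.04 with siControl and 1.85 with siCTBP1-AS #2. It was smaller with the knockdown for 25 of 26, the exception being TSC22D3, with -0.96 with siControl and 0.03 with the knockdown. Of all tested genes, 48.4% had a lower value with the knockdown and 69.6% a response smaller in size. STEAP4, a metalloreductase, had siControl signals of 3.25 (vehicle) and 10.72 (R1881), and knockdown signals of 3.50 and 8.41, a response of 7.46 against 4.91. ST6GALNAC1, a sialyltransferase, had 4.90 and 8.44 against 4.85 and 5.73, a response of 3.54 against 0.88 (difference -2.65, SE 0.21, limma adjusted p = 0.102). The vehicle arrays were alike and the R1881 arrays far apart. KLK3 had 10.65 and 13.25 with siControl and 10.39 and 12.86 with the knockdown, a response of 2.60 against 2.46, the smallest gap of the list. For the 10 androgen-repressed genes tested the median response was -2.71 with siControl and -1.43 with siCTBP1-AS #2. It was nearer to 0 for 10 of 10, against 69.6% of all tested genes. The response and the overall difference share the same 4 arrays. Averaged over treatments, 6 of the 26 induced genes fell and none rose, where 11.2% of all tested genes fell and 8.72% rose. The median of the 26 was -0.57, but it was -0.15 in vehicle and -1.14 in R1881. ABCC4, given above, SNAI2, RHOU and ODC1 had the largest falls, and ABCC4 alone was called on the 4 arrays. SNAI2, a transcription factor, had 5.41 and 10.37 against 4.39 and 7.86, a fall of 1.77 (SE 0.32). Without the vehicle pair 14 of the 26 were called lower and none higher, and without the R1881 pair 3 were lower and 1 higher. Of the 10 repressed genes 4 rose and 1 fell. LRRC31 rose by 1.53 (SE 0.41) and UGT2B17, which glucuronidates androgens, by 1.15 (SE 0.23), neither called on the 4 arrays alone. MMP16, a membrane metalloproteinase, fell by 1.44 (SE 0.20), from 10.46 and 7.51 to 8.96 and 6.13. Among receptors and cofactors HOXB13 and FOXA1, transcription factors of prostate epithelium, fell by 0.68 (SE 0.11) and 0.53 (SE 0.10), neither called on the 4 arrays alone.

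**Figure D4:**
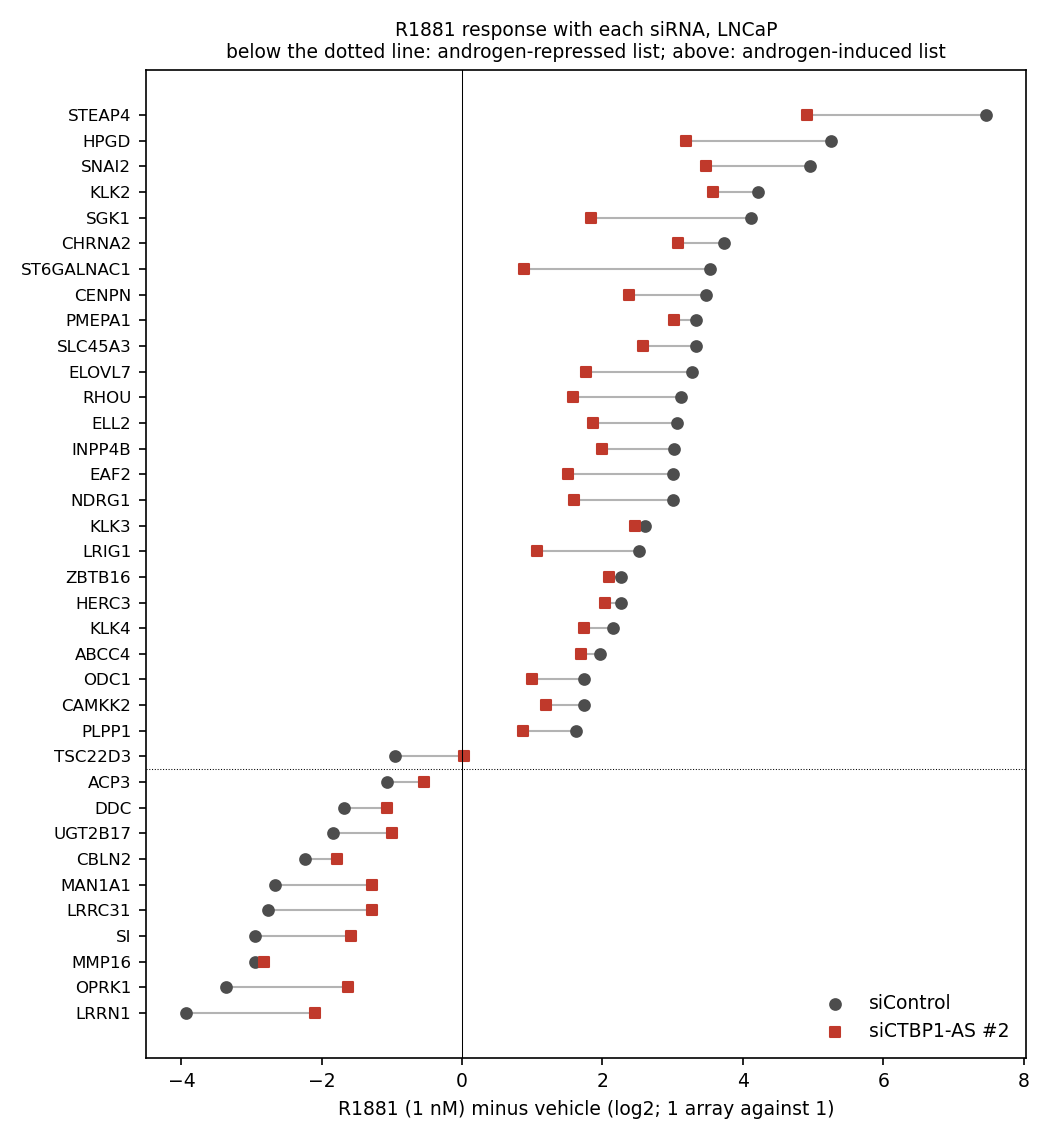
The R1881 response (1 nM R1881 minus vehicle, log2, 1 array against 1) is shown for each tested gene of the androgen-induced and androgen-repressed lists, as a grey circle for siControl and a red square for siCTBP1-AS #2, joined by a line. The squares lie nearer to 0 than the circles for every gene shown, TSC22D3 included, whose circle is below 0.

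The same held for genes chosen without set 2. The 127 genes induced over 2-fold by R1881 with siControl in both set 1 and set 3 had a median response in set 2 of 1.98 with siControl and 1.00 with siCTBP1-AS #2, smaller for 118. Their median difference between siRNAs was -0.06 in vehicle and -0.88 in R1881. The 46 genes repressed over 2-fold in both had medians of -1.70 and -0.93, smaller in size for 44. Of all tested genes, 69.6% had a response smaller in size. The same 4 arrays of set 2 enter all of these values. All 16 tested cholesterol genes shared the pattern, with a median response of 0.92 against 0.23. The value was lower with the knockdown for 16 of 16, against 48.4% of all tested genes.

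With the spread taken from all 18 arrays (4 residual degrees of freedom), 19 genes were called for a changed R1881 response, 16 with a lower and 3 with a higher value with the knockdown. TMCC3, an endoplasmic reticulum membrane protein, had 6.16 and 10.17 under siControl against 6.87 and 8.07 under siCTBP1-AS #2, a response of 4.01 against 1.20 (adjusted p = 0.0121 with 18 arrays, 0.105 with 12). CLDN8, a tight junction claudin, had 6.45 and 9.51 against 7.28 and 7.88, a response of 3.07 against 0.61. SGK1, a kinase related to AKT, had 4.03 and 8.14 against 3.78 and 5.63. SMS, the spermine synthase, had 8.67 and 11.10 against 9.04 and 9.72. In each of these 4 the R1881 array with the knockdown lay well below the R1881 array with siControl. Among the 3 higher values, CERK, the ceramide kinase, had 8.14 and 5.70 with siControl and 5.82 and 5.12 with the knockdown, so that its vehicle array was already low. STK3, a kinase of the Hippo pathway, had a response of -1.88 with siControl and -0.55 with the knockdown, and ITGA2, the integrin alpha-2 chain, of -1.48 and 0.30. With siControl in sets 1 and 3, at 10 nM R1881, the responses were 1.54 and 1.88 for TMCC3, and 1.67 and 2.33 for SGK1. They were 0.88 and 1.86 for CLDN8, and 1.69 and 1.50 for SMS. CERK had -0.44 and -0.94 there, STK3 -0.63 and -0.57, and ITGA2 -0.29 and -1.41. Each was smaller in size than that gene's siControl response in set 2, and the reason was not tested. These 19 genes were picked by the same 4 arrays of set 2 that give the set 2 responses printed here.

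Set 1 offers the same knockdown target in the same line, with its own controls and with 10 nM R1881. The effects of the 2 experiments, each averaged over vehicle and R1881, differed for 1232 of 13812 genes (8.92%), 496 with a higher value in set 2 (3.59%) and 736 with a lower one (5.33%). Without set 3 in the spread the count was 198. Across all genes the 2 effects correlated at 0.29. Of the genes called higher in set 2, 56.4% had a positive value in set 1, and of those called lower 65.0% a negative one. Over all genes 54.2% had the same sign in both, a share that pools the 2 directions. The median set 1 effect of all genes was -0.025, so negative values were the more common there. Interferon genes were high in both. Their effectors had a median of 1.50 in set 2 and 2.56 in set 1, and 12 of 33 were called lower in set 2 than in set 1 and none higher. IFIT1 averaged 4.43 and 4.22 (difference 0.21, SE 0.84, not called), but in set 1 it was 2.75 in vehicle and 5.69 in R1881, against 4.51 and 4.35 in set 2. CXCL10 had 2.54 in set 2 and 6.19 in set 1 (difference -3.65, SE 0.38, limma adjusted p = 0.00927), CXCL11 1.49 and 5.30, and OAS2 1.71 and 5.38. IFIT3 had 2.22 and 4.83. IFI27, BST2 and MX2 had 0.78, 0.68 and 0.46 in set 2, not called there, against 3.81, 3.56 and 3.29. TNFAIP3, an NF-kappa-B feedback inhibitor, had -0.33 against 2.78, CCL2, a monocyte chemokine, -0.08 against 2.97, and CP, ceruloplasmin, -0.07 against 3.81. CD274 had opposite signs, at -1.88 in set 2 and 1.93 in set 1 (difference -3.81, SE 0.30, limma adjusted p = 0.00463). Of the antigen presentation genes 7 of 11 were lower in set 2 than in set 1, and of the chemokines 6 of 9. DEPTOR (2.69 against 0.25), SERPINI1 (2.45 against 0.04), CATSPERB (2.50 against -0.01) and AQP3, a water channel (2.06 against -0.10), were high in set 2 and near 0 in set 1. OR51E1, an olfactory receptor of prostate, had 1.19 against -1.65, and ACP3, prostatic acid phosphatase, 0.94 against -1.36. HERPUD1, of endoplasmic reticulum stress, had 0.39 against -1.64. Without set 3 in the spread, OR51E1, SERPINI1, OAS2, IFIT3, IFI27, BST2 and CCL2 no longer passed. Without the R1881 pair of set 2 the count was 535 and without the vehicle pair 1059. CP and BST2 did not pass without either pair, CCL2 without the vehicle pair, and SERPINI1, OAS2, IFI27 and IFIT3 without the R1881 pair. The dose, the experiment and, if #2 names one, the siRNA cannot be told apart here.

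VCaP cells also received an siRNA labelled siCTBP1-AS #2, with the same 1 nM R1881 but in 5% rather than 2.5% charcoal/dextran-treated serum. In the fit of 18 arrays its effect and that in LNCaP differed for 1669 of 13812 genes (12.1%), 826 higher in LNCaP (5.98%) and 843 lower (6.1%). Without the R1881 pair of set 2 the count was 858 and without its vehicle pair 1346. Across all genes the 2 effects correlated at 0.15. Of the genes called higher in LNCaP 45.3% had a positive value in VCaP, and of those called lower 64.7% a negative one. Over all genes 52.6% had the same sign in both, a share that pools the 2 directions. The median VCaP effect of all genes was -0.025, so negative values were the more common there. Interferon effectors had a median of 1.02 in VCaP, and 3 of 33 differed between the lines, 2 higher in LNCaP and 1 lower. IFIT2 had 3.45 in LNCaP and 1.24 in VCaP (difference 2.21, SE 0.63), and did not pass without the R1881 pair. HERC5, a ligase that attaches ISG15, had 1.97 against 0.20. IFIH1 had 2.57 against 0.29 and CCL5 2.53 against 0.45. MX1, a dynamin-like antiviral GTPase, went the other way, at 0.30 in LNCaP, not called, and 2.98 in VCaP (difference -2.67, SE 0.22, limma adjusted p = 0.000544). In set 1 MX1 had 0.48. JAG1 (-2.51 against 0.05), MEST (-1.98 against 0.11), CHCHD10 (-1.94 against 0.12) and CD276 (-1.79 against 0.38) had large decreases in LNCaP and values near or above 0 in VCaP. DEPTOR (2.69 against -0.43) and SERPINI1 (2.45 against -0.73) had the largest positive gaps. CHAC1, of glutathione breakdown, had -0.10 against 2.28 and SESN2, a stress-induced inhibitor of mTOR, -0.73 against 1.32. They belong to the ATF4 list, of which 11 of 26 were lower in LNCaP and none higher. Of the mitosis genes 10 of 26 were lower in LNCaP and of the DNA replication genes 7 of 36, none higher in either.

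**Figure D5:**
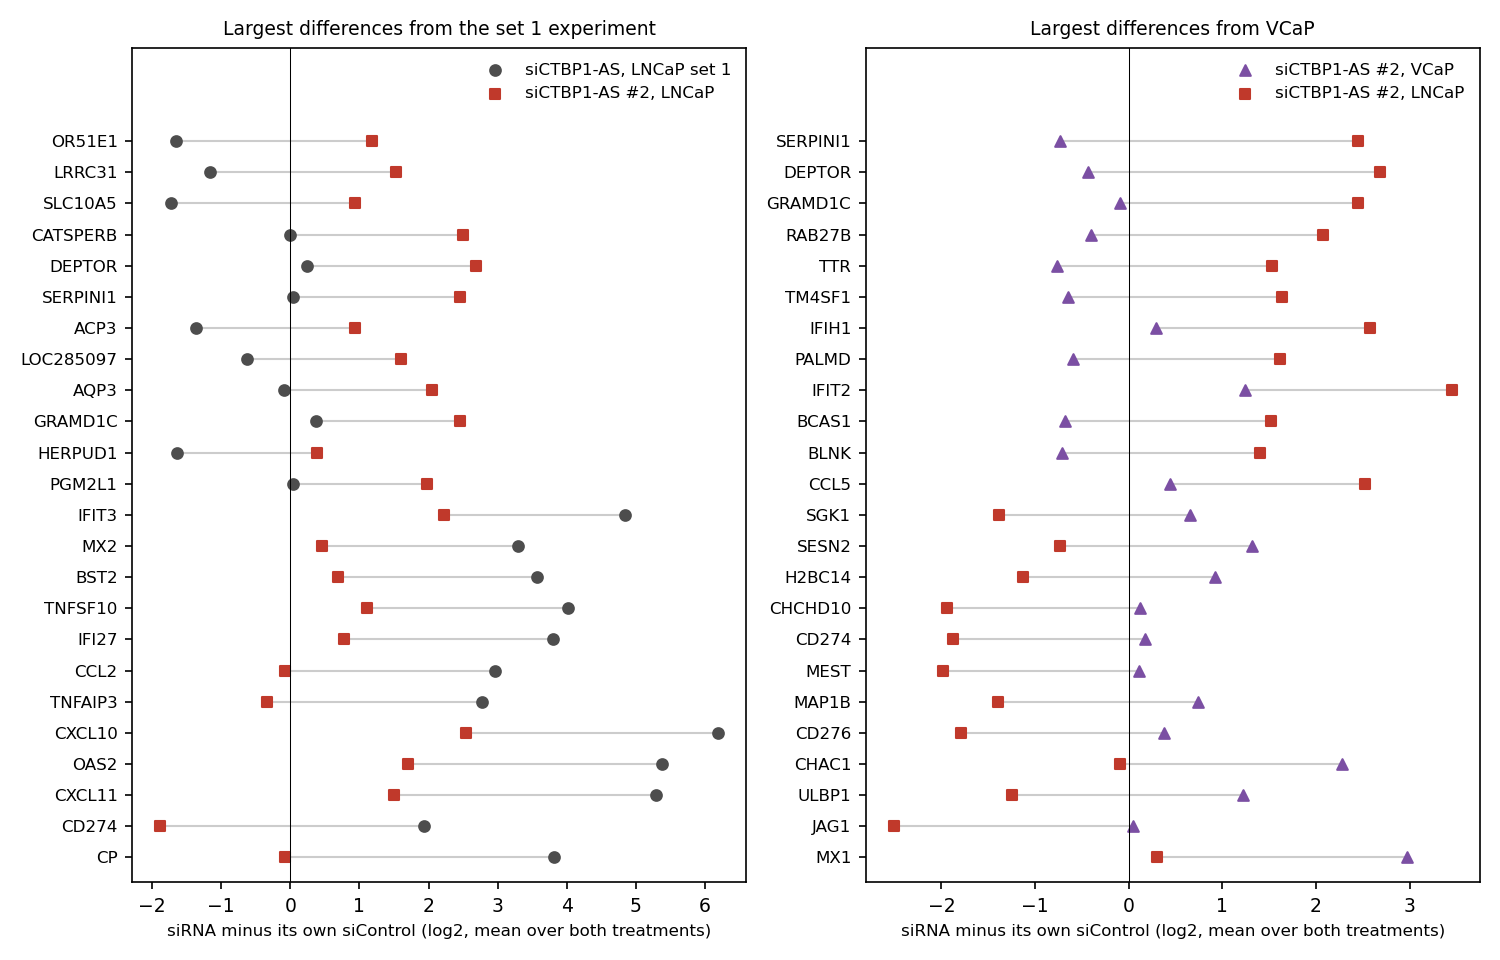
Effects of siCTBP1-AS over the siControl of the same experiment (log2, mean over both treatments) are shown for the genes with the largest differences between the siCTBP1-AS #2 experiment in LNCaP (red squares) and, on the left, LNCaP set 1 (grey circles) or, on the right, VCaP (purple triangles). CD274 lies at -1.88 against 1.93 in set 1, and MX1 at 0.30 against 2.98 in VCaP.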

How the data were processed

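The authors deposited log2 RMA signals for each transcript cluster of a whole-transcript gene array, and the submitters' processing notes name Affymetrix Expression Console 1.1.1. The platform annotation gave 1 symbol for 19460 of 33297 clusters, several for 1754 and none for 12083. Each of 18417 genes was represented by its brightest cluster (769 had more than 1). The dimmest 25% over the 12 LNCaP arrays, knockdown arrays included, were left out. Tests used lmFit and eBayes of limma 3.58.1 in R 4.3.3 with Benjamini-Hochberg adjustment at 0.05, checked first on simulated data. Each array set had its own level, R1881 and siRNA terms. Its siRNA value therefore comes from its own arrays and pairs them by treatment, while the spread is shared. VCaP was compared in a fit of all 18 arrays. Same-numbered siControl arrays share a set, and their deviations correlated at 0.79, 0.84 and 0.71, against -0.63 to -0.13 otherwise. No level was compared between sets.

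The genes named were, per comparison, the 12 highest and 12 lowest called genes (where none was called, the 6 highest and 6 lowest), up to 4 called genes of each list, and CTBP1, SFPQ, KLK3 and SMAD3. Others were named after their values were seen. The arrays and gene lists were chosen with earlier results of these data known. Alternatives changed the arrays in the fit, the filter, the normalization, the cluster rule and the variance prior. Promoters were matched by symbol.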

Additional observations from a re-analysis of the deposited data

Results flagged for a closer look

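The results below drew attention because the effect of siCTBP1-AS #2 differed between LNCaP and VCaP by a test of the difference itself (limma on 18 arrays, adjusted p under 0.05). In all, 826 genes had a higher value in LNCaP than in VCaP and 843 a lower one. The genes with the largest positive differences on the log2 scale were SERPINI1 at 3.19, DEPTOR at 3.12, GRAMD1C at 2.55, RAB27B at 2.47, TTR at 2.29, TM4SF1 at 2.29, IFIH1 at 2.28, PALMD at 2.21, IFIT2 at 2.21, BCAS1 at 2.19, BLNK at 2.12 and CCL5 at 2.08. The largest negative differences were MX1 at -2.67, JAG1 at -2.56, ULBP1 at -2.46, CHAC1 at -2.37, CD276 at -2.17, MAP1B at -2.14, MEST at -2.09, CD274 at -2.06, CHCHD10 at -2.06, H2BC14 at -2.05, SESN2 at -2.05 and SGK1 at -2.03. H2BC14 belongs to a family of near-identical histone genes, so its value is uncertain. Cell line, experiment and share of charcoal/dextran-treated serum (5% for VCaP, 2.5% for LNCaP) cannot be told apart in this comparison. Nor can the siRNA, if #2 does not name the same siRNA in both lines. No group has the 4 arrays needed to look for single outlying samples.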

How the results depend on the processing

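Of the alternatives run for siCTBP1-AS #2 against siControl (2749 genes), those with 2237 to 3096 calls were within 1.5 times the main count. These were all 18 arrays, set 1 left out, both filters, both normalizations, the mean of clusters and the intensity trend. The count was 485 on only the 4 arrays, 1789 with set 3 left out, and 1256 to 2000 with 1 treatment pair of set 2 left out. With no replicate block, that is without the treatment term that pairs the 4 arrays, it was 2. For the changed R1881 response all 18 arrays called 19 genes and each other alternative run called 0, with set 3 left out added after the data were seen, and it could not be computed with a set 2 array left out. For the difference from set 1 (1232 genes) the count was 198 with set 3 left out and 535 to 1059 with 1 pair left out. For the difference from VCaP (1669 genes) it was 858 to 1346 with 1 pair left out. Both normalizations shifted the median of all genes by under 0.1, and no named gene changed direction past the threshold under an alternative. Where a count moved, the cause was not tested. Most of those fits had fewer arrays, but the 19 calls came with more. The fit with 2 calls used the same 4 arrays as that with 485, but its spread includes the R1881 response. With 1 array per siRNA and treatment, the number of arrays limits the precision, and dim genes such as the other interferon ligands were not tested.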
